A study of Mus musculus with 2 samples.

Results

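The canonical transient receptor potential (TRPC) channel genes were taken by their symbols in the platform annotation, in the TRAP and the unbound column. Of the 6 genes chosen, Trpc1, Trpc2, Trpc4, Trpc5, Trpc6 and Trpc7, 5 had a value, each from 1 probe set, among 19503 genes measured in all. Trpc2 and other members of the family were not analysed here. The RNA came from pooled cerebella of mice at postnatal day 7 that carry the transgene Tg(Pcp2-L10a-Egfp), in which the Pcp2 promoter drives a tagged ribosomal protein in Purkinje cells. In translating ribosome affinity purification (TRAP), antibodies against the green fluorescent tag pull the tagged ribosomes out of the homogenate with the mRNA they carry. The TRAP group is the RNA bound to the beads and the unbound group is the RNA the beads left behind, so both groups carry the same transgene and age. Each group was 1 Affymetrix array, and how many animals were pooled is not given in the sources used here.

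TRPC proteins form tetrameric cation channels that let sodium and calcium into the cell. They open downstream of receptors that signal through Gq proteins and phospholipase C, which splits a membrane lipid into inositol trisphosphate and diacylglycerol. In Purkinje cells, channels of this family carry the slow current that follows activation of metabotropic glutamate receptors at the parallel fibre synapse. TRPC6 and TRPC7 are gated directly by diacylglycerol, TRPC4 and TRPC5 form a closely related pair that Gi proteins can also act on, and TRPC1 acts mainly as a partner subunit in mixed channels.

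All values are log2 expression values as the authors deposited them, and a difference is the TRAP value minus the unbound value. With 1 array in each group there was no replicate, so no difference has an error and no test was made. A difference of at least 2-fold, a difference of 1 on the log2 scale, was used as a rule of size. The table holds no detection calls, so 7.08, the median over every probe set on the 2 arrays pooled, served as a floor. A gene counted as above it when its value on either array was higher. A fold that rests on a value below the floor is uncertain, because the background of a probe set is not known.

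The purification was first checked on markers. Pcp2, which lends the transgene its promoter, read 12.98 in TRAP against 11.65 in unbound, or 2.52-fold. Each of the 9 Purkinje cell markers with a value was higher in TRAP, and 7 passed 2-fold. Their summed linear signal was 2.36 times the unbound sum. Markers of 9 other cell classes were mostly lower in TRAP. Of 47 that cleared the floor, 38 were at least 2-fold lower in TRAP and 0 passed 2-fold the other way. Some, such as Kit and Enpp6, cleared it through the unbound array alone. Since a value on either array could clear the floor, it favours genes that differ between the fractions, in either direction. Among these markers it let in ones lower in TRAP, and the sizes of such folds are uncertain. By the same rule, 18.6% of all genes that cleared the floor passed toward unbound. Without a floor the vascular and mural count was 4 in place of 3, and the counts of the other classes did not change. Hopx, an astrocyte and Bergmann glia marker, was higher in TRAP at 10.36 against 9.42 in unbound, and its difference of 0.93 passed 2-fold with the array medians subtracted (1.27) and after quantile normalization. Cbln3, a granule cell gene, read 7.11 in TRAP against 10.15 in unbound. Its TRAP value lies close to the floor of 7.08, so this gene alone does not show whether RNA of granule cells remained in TRAP. All 8 markers of its list were at least 2-fold lower in TRAP, but some stayed bright there. Zic1 read 11.84 in TRAP against 12.91 in unbound, and Rbfox3 11.12 against 12.31. Gabra6 was dimmer, at 7.71 in TRAP against 10.49 in unbound. Which cells this TRAP signal came from was not tested. What part RNA of other cell types plays in the value of a single channel gene was not tested.

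The TRPC genes did not move together. Trpc4 was higher in TRAP, Trpc5 lower in TRAP by a similar amount, Trpc1 modestly lower, and Trpc6 and Trpc7 nearly equal in both fractions. Above the floor lay 2 TRPC genes, and 1 of them passed 2-fold toward TRAP and 0 toward unbound. For comparison, 8.11% of the 10524 genes that cleared the floor passed toward TRAP and 18.6% toward unbound. Those shares stand for 853 and 1955 genes, which became 1723 and 1215 with the array medians subtracted and 1262 and 1439 after quantile normalization. Without a floor, 1 of the 5 TRPC genes passed toward TRAP and 1 toward unbound, against 4.58% and 11% of all 19503 genes. Nothing particular to the family can be read from counts this small. The 5 differences ran from -1.45 to 1.30 with a median of -0.19, beside a median of 0.10 over all genes.

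**Figure D1:**
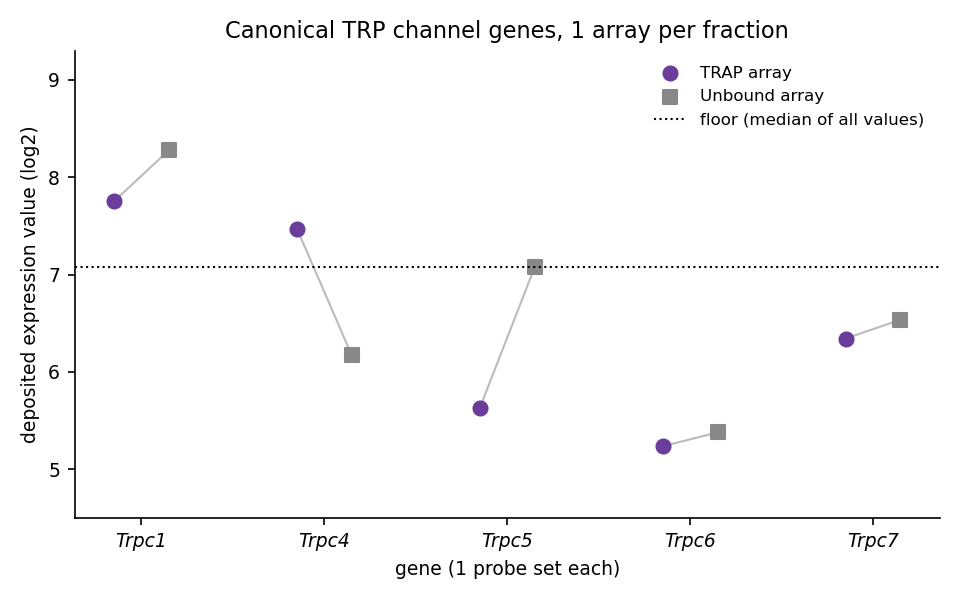
Deposited log2 expression value (vertical axis) of the 5 measured canonical TRP channel genes (horizontal axis), with the TRAP array as a circle on the left and the unbound array as a square on the right of each pair. The dotted line is the floor of 7.08, and each point is 1 array. Trpc4 lies above the floor in TRAP only, Trpc1 lies above it in both fractions, and the unbound value of Trpc5 lies on the line.

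Trpc4 encodes a channel subunit that responds to Gq-coupled and Gi-coupled receptors. It read 7.47 in TRAP and 6.17 in unbound, a difference of 1.30 or 2.47-fold. Relative to the floor, the TRAP value lay at 0.39 and the unbound value at -0.91, so the gene passed the floor through the TRAP array alone. Of the 19503 genes, 432 had a higher difference, which placed Trpc4 at percentile 97.8. Because the unbound value lies where the background is not known, the size of this fold is uncertain.

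Trpc5, the closest relative of Trpc4 in the family and a channel known to restrain neurite growth in cultured neurons, had the opposite difference. It read 5.63 in TRAP and 7.07 in unbound, a difference of -1.45 or 2.73-fold. Relative to the floor, the TRAP value lay at -1.45 and the unbound value at -0.00445, so Trpc5 counts as below the floor on both arrays. Of all genes, 1120 had a lower difference, which placed it at percentile 5.75. Trpc5os, a gene annotated as the opposite strand of Trpc5, read 4.14 in TRAP and 4.06 in unbound, far below the floor on both arrays. It and Trpc4ap below were singled out after their values had been seen.

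Set against each other on the same arrays, Trpc4 and Trpc5 differed by 2.75 on the log2 scale in how they divided between the fractions, a 6.72-fold difference in their ratios. A shift of a whole array cancels in this comparison. It was 2.85 after quantile normalization and 2.84 once a loess curve of differences against mean levels had been taken off. The pair joins the highest and the lowest of the 5 differences, and 3 of its 4 values lie below the floor, so the size is uncertain.

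**Figure D2:**
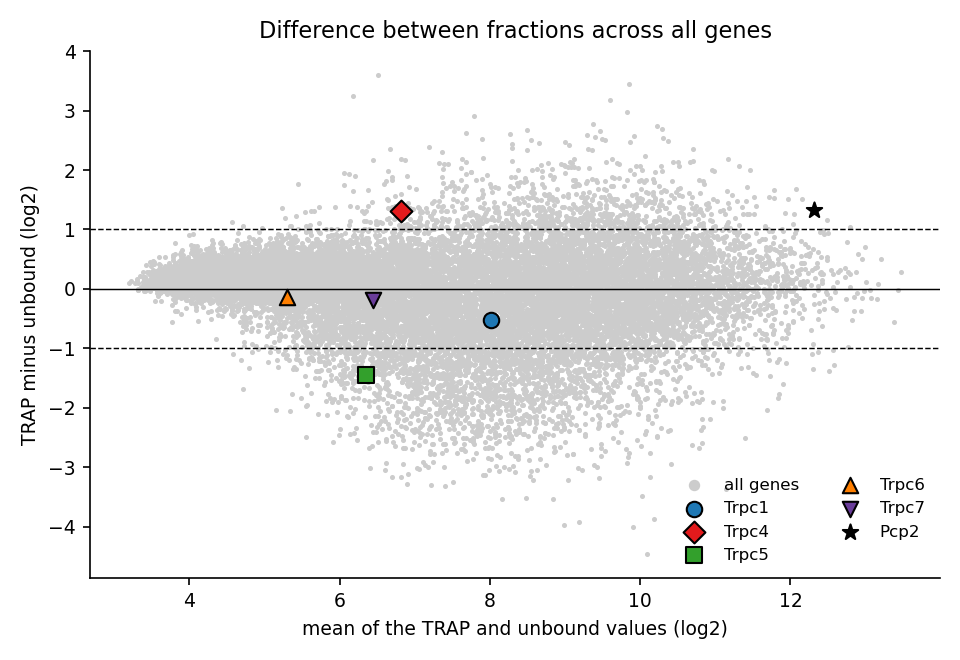
Difference between TRAP and unbound (vertical axis, log2) against the mean of both values (horizontal axis, log2) for all 19503 genes in grey, with the 5 measured TRPC genes and Pcp2 marked. Dashed lines mark 2-fold, and each point rests on 1 array per fraction. Trpc4 lies above the upper line at 1.30, Trpc5 below the lower line at -1.45, and the other 3 between the lines.

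The stretch around the transcription start of each of these genes is printed because they lie on opposite sides of the contrast. Both sequences are from RefSeq on GRCm38.p6, run 5′ to 3′ on the gene's own strand, and hold 250 bases before and 50 bases after the annotated start. Capitals mark matches to the GC box, GGGCGG on either strand.
Trpc4 (chr3:54155807-54156106, plus strand): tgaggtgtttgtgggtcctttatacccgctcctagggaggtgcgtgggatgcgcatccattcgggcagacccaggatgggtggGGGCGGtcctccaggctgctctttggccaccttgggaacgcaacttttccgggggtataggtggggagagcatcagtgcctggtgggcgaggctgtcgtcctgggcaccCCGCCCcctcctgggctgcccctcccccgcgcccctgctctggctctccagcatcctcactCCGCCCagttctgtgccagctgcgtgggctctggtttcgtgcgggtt
Trpc5 (chrX:144688131-144688430, minus strand): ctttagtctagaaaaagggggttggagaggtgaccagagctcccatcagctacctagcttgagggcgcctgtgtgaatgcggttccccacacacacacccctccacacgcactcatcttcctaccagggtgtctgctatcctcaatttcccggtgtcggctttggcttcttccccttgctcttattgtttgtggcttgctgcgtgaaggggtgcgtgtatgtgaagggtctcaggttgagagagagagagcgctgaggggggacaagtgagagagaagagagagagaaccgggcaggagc
The Trpc4 window held 3 GC box matches and the Trpc5 window 0, and 35.7% of all 32851 promoter windows in the table held at least 1. The Trpc4 window was also richer in G and C, at 66% against 55.7% for Trpc5 and a median of 52.7% over all windows, and it held 16 CpG dinucleotides against 9. The E-box, CANNTG, had 1 match in each window and was present in 72.3% of all windows. The half-site AGGTCA, which the Purkinje cell factor encoded by Rora can bind, had 0 matches in either window on either strand and was present in 16.3% of all windows. TATAAA matched once in Trpc4, on the opposite strand at position -232 from the start, and 0 times in Trpc5, beside 13.6% of all windows. CCAAT matched in neither, beside 37.4% of all windows. These matches share no letters with each other within a window. A match describes letters in a window and not a bound site.

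Trpc1, the partner subunit, was the only measured TRPC gene above the floor on both arrays. It read 7.75 in TRAP and 8.28 in unbound, a difference of -0.52 or 1.44-fold, short of the 2-fold rule. It stayed lower in TRAP under the 3 other scalings, at -0.19 with each array's median subtracted, -0.18 after quantile normalization and -0.33 after loess. Its promoter window held 3 GC box matches, as many as that of Trpc4. Whether such matches bear on the differences was not tested.

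Trpc6 and Trpc7, the diacylglycerol-gated members, were below the floor on both arrays. Trpc6 read 5.24 in TRAP and 5.38 in unbound, a difference of -0.14. Trpc7 read 6.34 in TRAP and 6.54 in unbound, a difference of -0.19. With the array medians subtracted both differences became positive, 0.19 for Trpc6 and 0.14 for Trpc7, so no direction can be given for either gene. Trpc6 is known from smooth muscle and kidney podocytes. Of the 9 vascular and mural markers, 4 were above the floor and 3 of these were at least 2-fold lower in TRAP. Over all 9 the differences had a median of -0.96, and the summed linear signal in unbound was 2.57 times that in TRAP. Their part in the values of Trpc6 was not tested. In RNA from a fraction of tissue, fewer cells of a type and less RNA per cell cannot be told apart, and here neither can be told from less RNA carried on ribosomes.

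**Figure D3:**
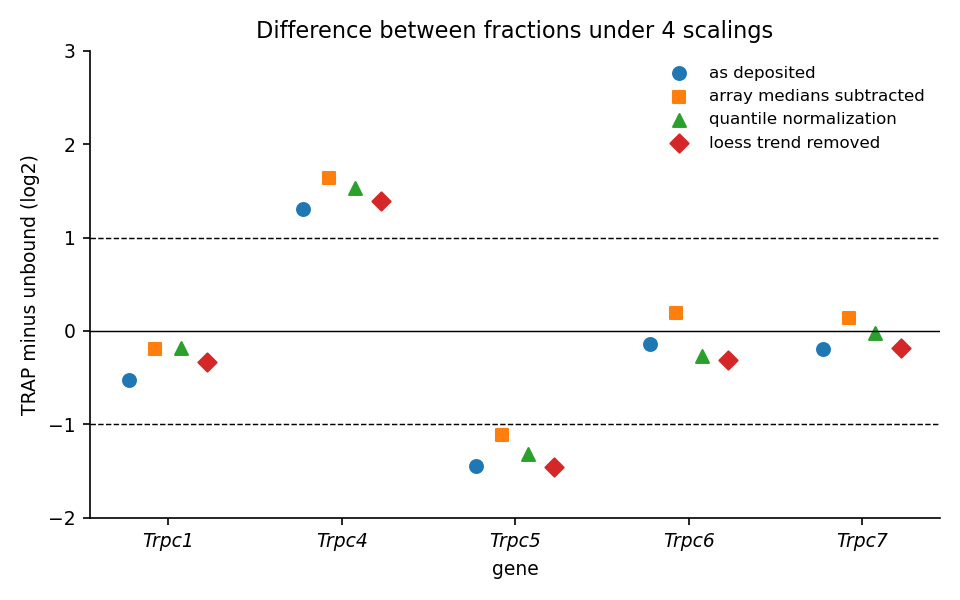
Difference between TRAP and unbound (vertical axis, log2) of each measured TRPC gene (horizontal axis) with the values as deposited and under 3 other scalings of the arrays. Dashed lines mark 2-fold. Trpc4 stays above 1 and Trpc5 below -1 under each, while Trpc6 and Trpc7 cross 0 with the array medians subtracted.

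Genes of the fixed lists that lay nearest to each channel gene in both values were found by distance on the log2 scale, over 2 arrays and 142 candidate genes. Trpc4 lay closest to Trpm2, a calcium-permeable TRP channel gated by ADP-ribose, at a distance of 0.16. Trpm2 read 7.40 in TRAP and 6.32 in unbound, and the next gene, Ryr1, was already 0.63 away. Trpc5 lay closest to Mog, a myelin gene, at 0.28, and to Kdr, an endothelial receptor gene, at 0.35. Trpc1 lay closest to the glucose transporter gene Slc2a1 (0.25) and to Saraf, a regulator of store-operated entry (0.30). Trpc6 was nearest to Pkd2l1 (0.23) and Plcb2 (0.39), and Trpc7 to Itpr3 (0.16) and Cx3cr1 (0.24), all 4 of them below the floor on both arrays. Nearness here means similar numbers on the arrays and not equal transcript abundance.

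Among the other TRP channel genes, 20 of 21 listed had a value and 15 of these lay below the floor on both arrays. Of the 5 above it, 1 passed 2-fold toward TRAP and 2 toward unbound. Over all genes above the floor the shares were 8.11% and 18.6%, which stand beside the counts of each list below. The lists are too small for their counts to be told from these shares. Trpm2 was 2.11-fold higher in TRAP. Trpm3, a calcium-permeable channel of the melastatin group, read 6.07 in TRAP and 8.78 in unbound, or 6.56-fold. Trpm7, a channel fused to a kinase, read 5.75 in TRAP and 7.96 in unbound, or 4.60-fold. Trpm3 and Trpm7 cleared the floor through the unbound array alone, so the sizes of these folds are uncertain. Mcoln1, a lysosomal channel, and Trpv2 differed by -0.06 and -0.22, and both were positive with the array medians subtracted and after quantile normalization. Trpc4 and Trpm2 were the 2 TRP channel genes at least 2-fold higher in TRAP among the 25 with a value, and in both the unbound value lay below the floor.

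The route that opens TRPC channels runs from Gq-coupled receptors through phospholipase C. Of 21 listed genes 17 had a value and 13 were above the floor, and 3 of these passed 2-fold toward TRAP and 3 toward unbound. Their median difference was 0.17, beside -0.13 over all genes above the floor. With no floor the median over the 17 genes was 0.03, beside 0.10 over all genes, so the order of list and background depends on the floor. Plcb3, a phospholipase C, read 10.77 in TRAP and 8.67 in unbound, or 4.29-fold. Dagla, the diacylglycerol lipase that makes an endocannabinoid, read 9.79 in TRAP and 7.91 in unbound, or 3.69-fold. The third was Dgkz, a kinase that converts diacylglycerol to phosphatidic acid, at 2.90-fold. It is given with Itpr2, Plcb4 and Daglb because of its count or role, after the values had been seen. Daglb, the other diacylglycerol lipase on the list, read 6.41 in TRAP and 7.23 in unbound, a difference of -0.82.

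Plcb4, a phospholipase C of Purkinje cells, read 12.22 in TRAP and 11.34 in unbound, a difference of 0.88 that passed 2-fold only with the array medians subtracted (1.21). At the lower end, Grm5, a metabotropic glutamate receptor gene, read 6.52 in TRAP and 8.24 in unbound, and Prkcb, a protein kinase C, 10.81 in TRAP and 12.26 in unbound. Itpr2, an inositol trisphosphate receptor, differed by -1.16 and fell short of 2-fold with the array medians subtracted (-0.83) and after quantile normalization (-0.84).

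**Figure D4:**
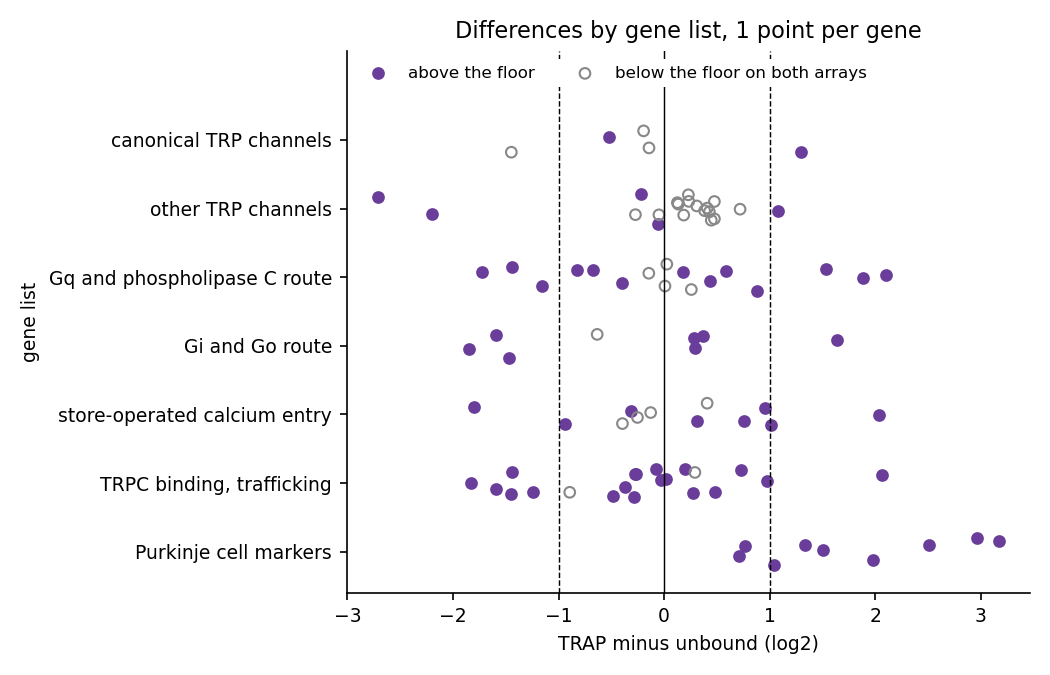
Difference between TRAP and unbound (horizontal axis, log2) for each gene of the canonical TRP list, 5 related lists and the Purkinje cell markers (vertical axis), 1 point per gene with vertical scatter for legibility. Filled points are above the floor on at least 1 array, open points below it on both, and dashed lines mark 2-fold. The Purkinje markers all lie to the right of 0, and the channel and pathway lists hold genes on both sides.

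TRPC4 and TRPC5 can also be driven through Gi proteins. Of the 8 listed genes of the Gi and Go route, 7 were above the floor, with 1 past 2-fold toward TRAP, 3 toward unbound and a median of 0.28, which was -0.18 over all 8 with no floor. Plcd3, a phospholipase C of the delta class, was 3.11-fold higher in TRAP, at 8.18 against 6.54 in unbound. Its unbound value lies below the floor, so the size of the fold is uncertain. Gnai2 and Gnai3, both inhibitory G protein alpha subunits, were lower in TRAP. Gnai2 read 9.90 in TRAP and 11.75 in unbound, and Gnai3 read 8.57 in TRAP and 10.16 in unbound. Gnaz, an alpha subunit of the same class, differed by 0.37. Plcd1, named after its value was seen, completed the 3 lower genes at -1.47.

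Store-operated entry refills calcium stores through STIM sensors and ORAI pores, and TRPC1 has been studied as a part of it. All 12 listed genes had a value and 8 were above the floor, with 2 past 2-fold toward TRAP, 1 toward unbound and a median of 0.53. That median stands beside -0.13 over all genes above the floor. With no floor the median over the 12 genes was 0.09, beside 0.10 over all genes. Atp2a3, a calcium pump of the endoplasmic reticulum, read 8.64 in TRAP and 6.60 in unbound, or 4.11-fold. This unbound value is also below the floor, which leaves the fold uncertain. Orai2, a pore subunit, was 2.02-fold higher at 9.69 in TRAP and 8.68 in unbound. The store sensor gene Stim2 read 7.71 in TRAP and 8.65 in unbound, a difference of -0.94. Stim1, the other sensor, was singled out after its value was seen because it went the opposite way, at 8.73 in TRAP and 7.97 in unbound. Ryr2, a calcium release channel, read 7.01 in TRAP and 8.80 in unbound. The number of genes at least 2-fold higher in TRAP was 4 with the array medians subtracted and after quantile normalization, since Stim1 and Orai3, a further pore subunit gene named after its value was seen, then passed.

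Proteins reported to bind TRPC channels or to move them to the membrane made up the last list. Of 24 genes 21 had a value and 19 were above the floor, with 1 past 2-fold toward TRAP, 5 toward unbound and a median of -0.27. Over all genes above the floor, 8.11% and 18.6% passed and the median was -0.13. With the array medians subtracted 3 passed toward TRAP and 4 toward unbound, and the median was 0.07, beside 0.245 over all genes above the floor. Homer3, a postsynaptic scaffold that Purkinje cells carry, read 12.35 in TRAP and 10.29 in unbound, or 4.18-fold. Fkbp1a, an immunophilin, was next at 1.96-fold. Homer2 read 8.37 in TRAP and 9.95 in unbound. Slc9a3r1, a scaffold that binds the tail of TRPC4 and TRPC5, read 8.35 in TRAP and 10.18 in unbound, or 3.56-fold. The other 3 lower genes, Tjp1, Cav1 and Rnf24, are named after their values were seen and differed by -1.45, -1.44 and -1.25. Trpc4ap, which encodes a protein found through its binding to TRPC4, was bright on both arrays at 11.12 in TRAP and 11.59 in unbound, and its difference of -0.47 ran opposite to that of Trpc4.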

How the data were processed

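For each array and probe set the authors deposited 1 log2 value. It came from Affymetrix Power Tools, as named in the submitters' processing notes. How it was normalized and summarised is not given in the sources used here, and base 2 was inferred, since natural logs would exceed a 16-bit scanner's range (65535). Gene names came from the platform annotation: of 22097 probe sets, 20999 name 1 gene, 91 several (left out) and 1007 none. Symbols were updated through RefSeq genes of GRCm38.p6 (20959 matched). Probe sets of a gene were averaged, which gave 19503 genes. Values were used without further scaling, with Python 3.11.15, pandas 2.3.3 and statsmodels 0.14.6. The number of arrays, 2, limits precision.

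The members and gene lists were chosen with earlier results of these data known. Genes were named by a rule: the listed TRPC genes, Pcp2, the 2 genes at each end of each list above the floor, and the 2 nearest list genes of each TRPC gene. Genes outside this rule are marked. Marker lists are mostly summarised. Alternatives were other scalings, floors, folds and the brightest probe set. Without replicates, a value counted as changed when its sign or its side of 2-fold changed, and a count when it moved by over 1.5 times. Scripts were tested on simulated data.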

Additional observations from a re-analysis of the deposited data

How the results depend on the processing

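The 2-fold differences of Trpc4 and Trpc5 kept their direction and their side of 2-fold under the 3 other scalings, at 1.39 to 1.63 and -1.46 to -1.12. A floor does not enter a difference and each gene has 1 probe set, so those choices could not move them. At 4-fold neither Trpc4 (1.30) nor Trpc5 (-1.45) passed. Trpc1 stayed short of 2-fold and lower in TRAP. With the array medians subtracted, the overall median rose by 0.33 to 0.43, Trpc6 became 0.19 and Trpc7 0.14, and 1723 genes passed 2-fold toward TRAP and 1215 toward unbound, in place of 853 and 1955. After quantile normalization the counts were 1262 and 1439.

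How many TRPC genes counted depended on the floor, by its construction. With no floor 5 counted, 1 of them at least 2-fold higher in unbound. With the floor applied to a gene's mean 1 counted and 0 were 2-fold higher in TRAP, since the mean of Trpc4 lies below it. With the floor at the 75th percentile, 9.01, 0 counted and 0 were 2-fold higher in TRAP, and 986 of all genes were 2-fold higher in unbound. At 1.5-fold 1983 genes were higher in TRAP and 3252 in unbound, and at 4-fold 78 and 457, with 0 TRPC genes higher in TRAP. Leaving out an array leaves no comparison. No paired analysis was possible because each group is 1 array. Dim probe sets limit Trpc5, Trpc6 and Trpc7 throughout, and the unbound value of Trpc4.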
